A study of Mus musculus with 4 samples.

Results

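MiR-296 and miR-298 are 2 small hairpins at the imprinted Gnas locus of mouse chromosome 2, and all their arms that the tables list were taken here. These are mmu-miR-298-5p, mmu-miR-298-3p, mmu-miR-296-5p and mmu-miR-296-3p (mmu, for mouse, is left out below), 4 of the 1091 mature miRNAs listed. Small RNA was sequenced from CD4+ T cells of C57BL/6 mice, in 4 groups with 1 library in each. The groups were Cbl-b-/- cells stimulated with an antibody to CD3 for 48 h, WT cells stimulated in the same way, unstimulated Cbl-b-/- cells and unstimulated WT cells. The source names call the unstimulated cells naive and give no culture time for them. Cbl-b-/- mice lack the E3 ubiquitin ligase Cbl-b, which restrains signalling from the T cell receptor, and CD3 is part of that receptor's complex. The labels do not say how many mice went into a library. The arms were chosen by their read counts in stimulated and unstimulated libraries, so the stimulation ratios are given as a description, with no test.

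The read counts of known miRNAs summed to 11561693, 13074598, 14017277 and 15436447 in the stimulated Cbl-b-/-, stimulated WT, unstimulated Cbl-b-/- and unstimulated WT libraries. Rows with identical counts, 25 in 12 groups, all enter these sums, so some reads may be counted more than once. The totals implied by the authors' normalized counts were 101%, 100%, 94.7% and 94.4% of these sums, in the same order. Levels are given as counts per 1000000 of these sums (CPM). The 95% intervals are exact Clopper-Pearson intervals. They reflect read counting error alone, and PCR copies are not independent molecules. With 1 library per group nothing could be checked against replicates, and each ratio compares 2 libraries rather than 2 conditions. In bulk samples such as these, fewer cells of a type and less RNA per cell cannot be told apart. The genotype labels could not be set against Cblb messenger RNA, which was not analysed here. Among miRNAs known from lymphocytes, miR-142a-5p led in all 4 libraries, at 104582 and 121285 CPM in stimulated Cbl-b-/- and WT cells and 185150 and 187887 CPM in unstimulated Cbl-b-/- and WT cells. The 5 lymphocyte miRNAs together held 169305 and 189381 CPM in stimulated and 370291 and 390359 CPM in unstimulated Cbl-b-/- and WT cells. Of the 5, miR-342-3p was higher in the stimulated libraries of both genotypes, at 6349 and 7229 CPM in stimulated and 5015 and 6543 CPM in unstimulated Cbl-b-/- and WT cells, and the other 4 were lower.

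The Gnas locus encodes the stimulatory G protein subunit that couples many receptors to cyclic AMP, and several of its transcripts are made from 1 parental allele only. In mice the 2 hairpins belong to this imprinted cluster and are expressed from the paternal allele. In a microRNA, the bases from position 2 to 8, the seed, pair with target messenger RNAs, and usually 1 arm of the hairpin is kept while the other is degraded. MiR-296 is known for restraining Nanog in mouse embryonic stem cells and the receptor-sorting gene HGS in human endothelial cells. MiR-298 is known for repressing Bace1, a secretase gene, in mouse cells.

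The RefSeq sequences of the 4 arms are shown because their seeds decide which messenger RNAs each arm could pair with. They run 5′ to 3′, with the seed in capitals.
miR-298-5p: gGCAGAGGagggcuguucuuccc
miR-298-3p: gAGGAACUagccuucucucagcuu
miR-296-5p: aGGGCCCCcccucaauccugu
miR-296-3p: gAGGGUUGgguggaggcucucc
The 4 seeds differ from each other, and 0 of the other mature miRNAs of the RefSeq table shared any of them. Edits (changed, added or missing bases) were counted only against listed miRNAs that matched RefSeq by name. The closest of these from another hairpin lay 9 edits from miR-298-5p and from miR-298-3p, and 8 from miR-296-5p and from miR-296-3p. None of the arms had a row with counts identical to those of another miRNA. GC content was 65.2% in miR-298-5p, 50% in miR-298-3p, 66.7% in miR-296-5p and 68.2% in miR-296-3p. The median of the 905 listed miRNAs that matched RefSeq by name was 50%. Of those, 11.4% had a GC content at or above that of miR-298-5p, 9.83% at or above that of miR-296-5p and 6.63% at or above that of miR-296-3p. MiR-296-5p carries an unbroken run of 7 C.

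The hairpins are shown to place the arms, which stand in capitals (RefSeq, GRCm38, minus strand).
Mir298, chr2:174267504-174267585: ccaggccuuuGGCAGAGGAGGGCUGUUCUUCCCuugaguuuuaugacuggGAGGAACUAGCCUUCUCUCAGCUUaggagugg
Mir296, chr2:174267047-174267125: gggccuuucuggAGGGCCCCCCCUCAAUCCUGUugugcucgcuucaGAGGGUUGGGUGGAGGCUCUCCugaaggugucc
Both hairpins lie on the minus strand with 378 bases between them, and Mir298 comes first in the direction of transcription. No other GENCODE gene overlaps the pair, so the annotation places them in neither an exon nor an intron. The nearest gene at higher coordinates is Nespas, the noncoding antisense transcript of the locus, which lies on the same strand and ends 13651 bases before Mir298 (174281237 to 174295436). Gnas itself lies on the opposite strand, 16734 bases away (174284320 to 174346744). The Mir298 hairpin is 82 bases long with a predicted folding energy of -42.7 kcal/mol, and the Mir296 hairpin is 79 bases long with -43.2 kcal/mol.

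MiR-298-5p was the most abundant of the 4 arms in every library. It had 24710 reads (2137 CPM) in the stimulated Cbl-b-/- library and 43357 reads (3316 CPM) in the stimulated WT library. Without stimulation it had 1127 reads (80.4 CPM) in Cbl-b-/- cells and 1217 reads (78.8 CPM) in WT cells. The stimulated libraries thus stood far above the unstimulated ones, and the 2 unstimulated libraries lay within counting error of each other. In place among the 1091 miRNAs it stood at 48 and 36 in stimulated Cbl-b-/- and WT cells and at 163 and 165 in unstimulated Cbl-b-/- and WT cells. It made up 0.214% and 0.332% of the counted reads in stimulated Cbl-b-/- and WT cells.

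MiR-298-3p, the other arm of the same hairpin, was close to the limit of detection. It had 24 reads (2.08 CPM) and 38 reads (2.91 CPM) in stimulated Cbl-b-/- and WT cells, and 4 reads (0.285 CPM) and 8 reads (0.518 CPM) in unstimulated Cbl-b-/- and WT cells. A count of 3 reads corresponds to between 0.194 and 0.259 CPM in these libraries. Its intervals are wide, at 1.33 to 3.09 CPM in the stimulated Cbl-b-/- library and 0.0777 to 0.731 CPM in the unstimulated one. The stimulated libraries were the higher ones for this arm too.

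MiR-296-5p had 1533 reads (133 CPM) in the stimulated Cbl-b-/- library and 1861 reads (142 CPM) in the stimulated WT library. In unstimulated cells it had 439 reads (31.3 CPM) in Cbl-b-/- and 377 reads (24.4 CPM) in WT. MiR-296-3p had 819 reads (70.8 CPM) and 1060 reads (81.1 CPM) in stimulated Cbl-b-/- and WT cells, and 127 reads (9.06 CPM) and 138 reads (8.94 CPM) in unstimulated Cbl-b-/- and WT cells. Both arms of miR-296 were higher in both stimulated libraries than in either unstimulated one. The order of the 4 arms was the same in every library, miR-298-5p first, then miR-296-5p, miR-296-3p and miR-298-3p, and no neighbours in this order had overlapping intervals within a library. The 4 arms together came to 2343 and 3542 CPM in stimulated Cbl-b-/- and WT cells, and to 121 and 113 CPM in unstimulated Cbl-b-/- and WT cells.

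**Figure D1:**
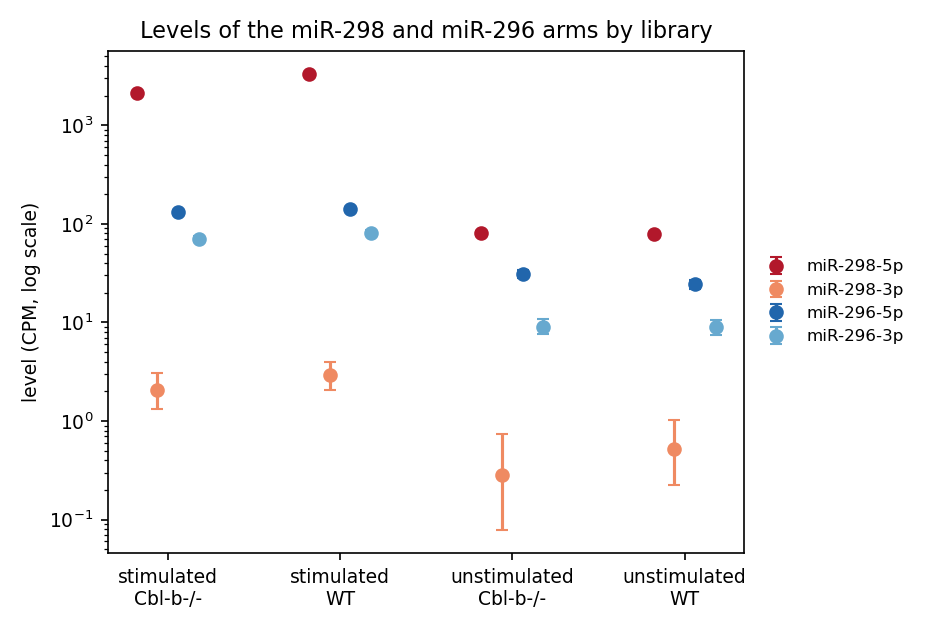
Level of each arm in each library, in CPM on a log axis, with 95% exact counting intervals as bars (1 library per group, so no replicate error is shown). All 4 arms stand higher in both stimulated libraries, and miR-298-5p is separated from the other arms most widely there, at 2137 and 3316 CPM in Cbl-b-/- and WT cells.

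Setting stimulated beside unstimulated cells describes how the 4 arms differed between the libraries of anti-CD3 stimulated and of naive cells. MiR-298-5p was 26.6-fold higher in stimulated than in unstimulated Cbl-b-/- cells (log2 ratio 4.73, interval 4.65 to 4.82). In WT cells it was 42.1-fold higher (5.39, 5.31 to 5.48). MiR-296-5p was 4.23-fold higher in Cbl-b-/- cells (2.08, 1.93 to 2.24) and 5.83-fold in WT cells (2.54, 2.38 to 2.71). MiR-296-3p was 7.82-fold higher in Cbl-b-/- cells (2.97, 2.70 to 3.25) and 9.07-fold in WT cells (3.18, 2.92 to 3.45). The ratios of miR-298-3p, 2.86 (1.32 to 4.85) and 2.49 (1.37 to 3.80), rest on the few reads given above. All 4 arms lay on the same side in both genotypes, by amounts that differed between the arms.

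To pass a rule of size, a miRNA needed a ratio of 2-fold or more with an interval that excluded 0 in log2, and a level that averaged 50 CPM or more over the 2 libraries. In Cbl-b-/- cells 78 of 223 miRNAs over the level minimum passed as higher (35.0%) and in WT cells 78 of 220 (35.5%). Either way, 49.8% and 49.5% passed. MiR-298-5p and miR-296-5p passed as higher in both genotypes. MiR-296-5p reached the level minimum only through the stimulated libraries. MiR-296-3p and miR-298-3p stayed below the minimum in both comparisons, at means of 40.0 and 1.18 CPM in Cbl-b-/- cells and 45.0 and 1.71 CPM in WT cells. Since the arms were chosen for this contrast, nothing is read from their count. By size of ratio miR-298-5p stood at place 8 of 223 in Cbl-b-/- cells and 4 of 220 in WT cells. MiR-296-5p stood at place 34 and 28. The miRNAs just above miR-298-5p were miR-449c-5p in both genotypes (5.30 in Cbl-b-/- and 5.47 in WT cells), and just below it were miR-31-5p in Cbl-b-/- cells (4.71) and miR-147-3p in WT cells (5.19).

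The size of these ratios depended on the scaling. TMM factors shifted every log2 ratio by -0.60 in Cbl-b-/- and -0.61 in WT cells. The calls over all miRNAs were then 50 higher and 69 lower in Cbl-b-/- cells, against 78 and 33 by library sums, and 49 and 69 in WT cells, against 78 and 31. With TMM factors miR-298-5p came to 4.13 in Cbl-b-/- and 4.78 in WT cells and miR-296-5p to 1.48 and 1.93. MiR-296-3p then came to 2.37 and 2.57, and miR-298-3p to 2.26 and 1.87, so no arm changed direction.

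**Figure D2:**
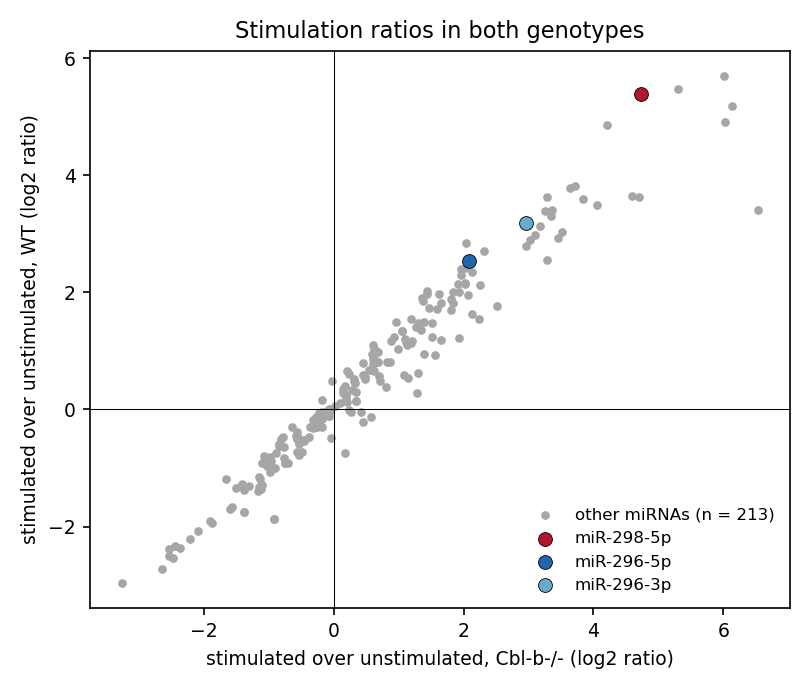
Log2 ratio of stimulated over unstimulated CPM in Cbl-b-/- cells (horizontal) and WT cells (vertical), with 213 other miRNAs over the level minimum in grey. MiR-298-5p stands at 4.73 and 5.39, near the top right, and both arms of miR-296 stand between 2.08 and 3.18; miR-298-3p is left out for its few reads.

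Ratios between the arms within a library need no scaling between libraries. For each read of miR-296-5p there were 16.1 reads of miR-298-5p in stimulated Cbl-b-/- cells (interval 15.3 to 17.0) and 23.3 in stimulated WT cells (22.2 to 24.4). In unstimulated cells there were 2.57 in Cbl-b-/- (2.30 to 2.87) and 3.23 in WT (2.87 to 3.63). The 2 leading arms of these neighbouring hairpins therefore stood 6.28-fold further apart in stimulated than in unstimulated Cbl-b-/- cells and 7.22-fold in WT cells. Set against miR-296-3p, miR-298-5p had 30.2 and 40.9 reads for each in stimulated Cbl-b-/- and WT cells, and 8.87 and 8.82 in unstimulated Cbl-b-/- and WT cells. This ratio was 3.40-fold higher in stimulated than in unstimulated Cbl-b-/- cells and 4.64-fold higher in WT cells.

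The arms of a hairpin also differed in their ratio. MiR-296 was read from both arms, with 1.87 reads of 5p for each of 3p in stimulated Cbl-b-/- cells (1.72 to 2.04) and 1.76 in stimulated WT cells (1.63 to 1.89). In unstimulated cells the ratio was 3.46 in Cbl-b-/- (2.83 to 4.25) and 2.73 in WT (2.24 to 3.34). The 5p to 3p ratio of miR-296 was thus lower in both stimulated libraries, by 0.88 in log2 in Cbl-b-/- cells (interval of the difference -1.20 to -0.57) and by 0.64 in WT cells (-0.94 to -0.34). Such a difference was common. Of 78 pairs of arms with at least 100 reads of each arm in every library, 27 in Cbl-b-/- and 44 in WT cells, miR-296 included, had a difference at least as large in size, and the median size was 0.63 and 0.69. MiR-298, by contrast, was read almost wholly from its 5p arm. Its ratio of 5p to 3p was 1030 (692 to 1607) and 1141 (831 to 1613) in stimulated Cbl-b-/- and WT cells, against 282 (110 to 1036) and 152 (77.0 to 353) in unstimulated Cbl-b-/- and WT cells. Its 5p to 3p ratio was 3.65-fold higher in stimulated than in unstimulated Cbl-b-/- cells (log2 1.87, 0.34 to 3.40) and 7.50-fold higher in WT cells (2.91, 1.80 to 4.01). The 4 and 8 reads of miR-298-3p in unstimulated cells set this precision.

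The 3p arms of the 2 hairpins could be compared less precisely. For each read of miR-296-3p there were 0.0293 reads of miR-298-3p in stimulated Cbl-b-/- cells (0.0187 to 0.0439) and 0.0358 in stimulated WT cells (0.0252 to 0.0495). In unstimulated cells there were 0.0315 in Cbl-b-/- (0.00845 to 0.0826) and 0.0580 in WT (0.0245 to 0.117). The log2 difference between states was -0.10 (-1.65 to 1.45) in Cbl-b-/- and -0.69 (-1.82 to 0.44) in WT cells, and at this depth no difference was detectable.

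**Figure D3:**
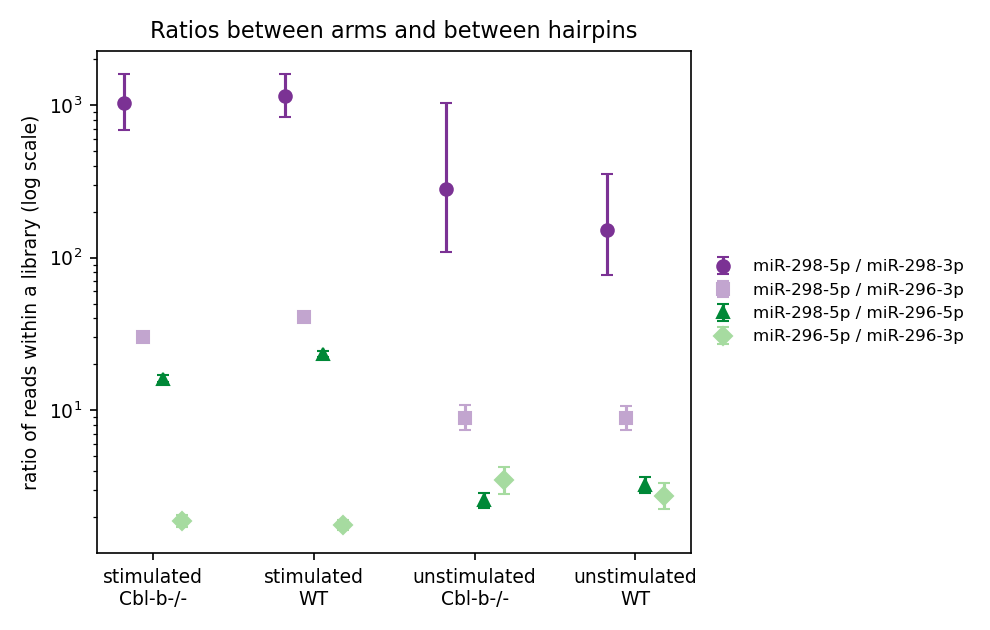
Ratio of reads between 2 arms within each library, on a log axis, with 95% exact counting intervals as bars. The ratios with miR-298-5p on top are higher in both stimulated libraries, and the ratio of miR-296-5p to miR-296-3p is lower there, at 1.87 and 1.76 in Cbl-b-/- and WT cells.

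To see how far apart neighbouring hairpins lie in general, pairs of adjacent hairpins on 1 strand with at most 1000 bases between them were compared, a comparison chosen after the values of the arms were seen. Each hairpin was represented by its most abundant arm among mature miRNAs that the RefSeq table lists for a single hairpin, and that arm had to average 50 CPM or more over the 4 libraries. In 5 pairs 1 hairpin was thereby represented by its minor arm, because its most abundant arm is listed for several hairpins. Of 21 such pairs, miR-298-5p and miR-296-5p had the largest difference in log2 stimulation ratio in both genotypes, 2.65 in Cbl-b-/- and 2.85 in WT cells. The median over the 21 pairs was 1.00 in Cbl-b-/- and 0.79 in WT cells, and the largest of the other pairs reached 2.09 (miR-501-3p and miR-362-3p) and 2.37 (let-7b-5p and the minor arm let-7c-2-3p). Without the 5 pairs that hold a minor arm, the pair was also first of 16 in both genotypes, and the largest of the others were then 2.09 and 1.80. In 9 of the 21 pairs both hairpins were 2-fold or more higher in stimulated cells of both genotypes. The other 8 of these differed by 0.0070 to 1.64 in Cbl-b-/- and by 0.13 to 1.37 in WT cells. Pairs within a cluster can share a hairpin, so the pairs are not independent of each other. MiR-18a-5p, for example, was paired with both miR-17-5p and miR-19a-3p. The place at the top depended on the choice of arms and pairs. With miR-296-3p in place of miR-296-5p, miR-298-5p differed by 1.77 in Cbl-b-/- and 2.21 in WT cells. These values lie below the 2.09 and 2.37 of the largest other pairs. In WT cells the value lies above the 1.80 that remains without the minor arms. With neighbours up to 10000 bases apart the pair was second of 26 in Cbl-b-/- cells, where the largest was 2.86, and first in WT cells. With a level minimum of 10 CPM it was second of 27 in both.

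**Figure D4:**
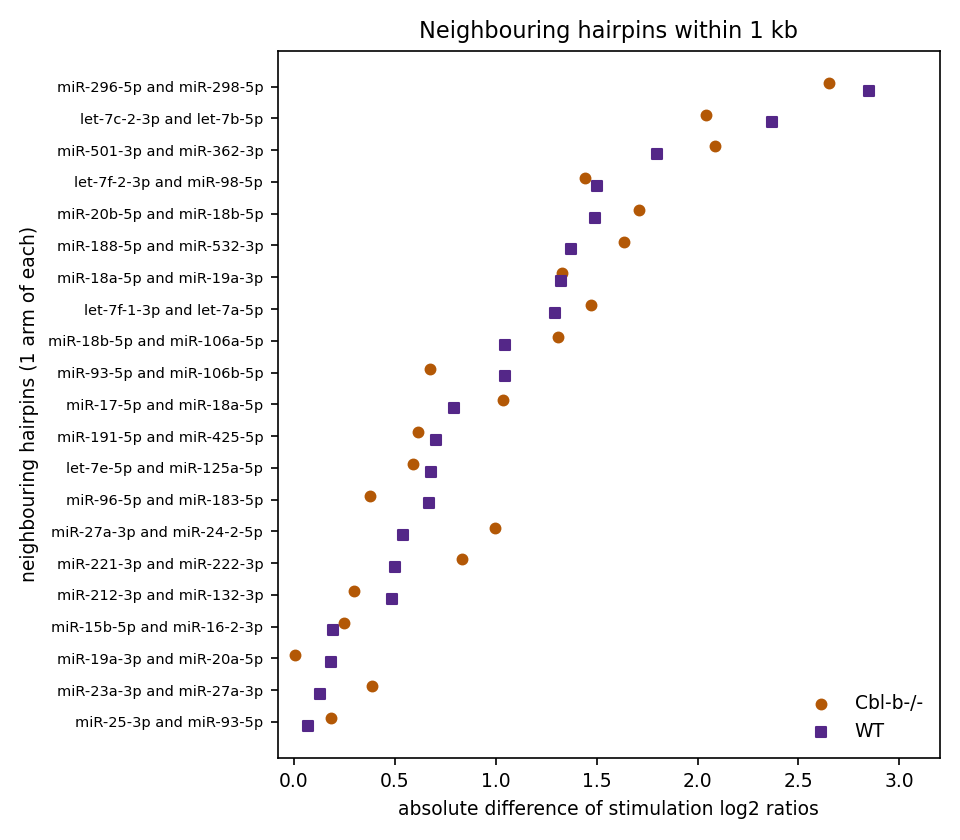
Absolute difference in stimulation log2 ratio between 1 arm of each hairpin in 21 pairs of neighbouring hairpins, with Cbl-b-/- cells as circles and WT cells as squares. The pair of miR-296-5p and miR-298-5p stands at the top, at 2.65 and 2.85.

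The genotypes were compared to see whether these miRNAs differ where Cbl-b is missing. In stimulated cells miR-298-5p was lower in the Cbl-b-/- library, at 2137 CPM against 3316 CPM in WT, a log2 ratio of -0.63 (interval -0.66 to -0.61). This difference, 1.55-fold, did not reach the 2-fold limit. It was nevertheless the lowest ratio of the 230 miRNAs over the level minimum, which had a median of -0.05 and a robust SD (from the median absolute deviation) of 0.26. Past the rule lay 5.22% of these miRNAs, 12 as higher and 0 as lower. Another scaling shifts every ratio of a comparison alike. It could therefore change this place only through which miRNAs reach the minimum, and no such change occurred. MiR-298-5p was also the lowest with a level minimum of 200 CPM. With a minimum of 10 CPM, 3 of 341 miRNAs had lower ratios, and with none it came to place 205 of 1057. MiR-296-5p had a ratio of -0.10 (-0.20 to -0.00400) and miR-296-3p of -0.19 (-0.33 to -0.06), both inside the spread of the other miRNAs. MiR-298-3p had -0.49 (-1.29 to 0.29). All 4 arms were below 0, but so was the median over all miRNAs, and the interval of miR-298-3p spans 0. Of the 3 arms over the level minimum 0 passed the rule.

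In unstimulated cells miR-298-5p stood at 80.4 CPM in Cbl-b-/- against 78.8 CPM in WT, a log2 ratio of 0.03 (-0.09 to 0.15). This places it in the middle of the 197 miRNAs over the level minimum, of which 1.52% passed the rule, and it was the only one of the 4 arms to reach that minimum. Below that minimum, miR-296-5p had 0.36 (0.16 to 0.56), miR-296-3p 0.02 (-0.34 to 0.38) and miR-298-3p -0.86 (-3.04 to 1.04). The robust SD over the 197 miRNAs was 0.20.

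The genotype ratio of miR-298-5p was lower in stimulated than in unstimulated cells by 0.66 in log2 (difference -0.66, counting interval -0.78 to -0.54). Among 223 miRNAs that averaged 50 CPM or more over all libraries, 2 had a lower difference. For miR-296-5p the difference was -0.46 (-0.68 to -0.24), place 13 from the lowest. For miR-296-3p it was -0.21 (-0.59 to 0.16) and for miR-298-3p 0.30 (-1.5 to 2.11), both below the level minimum. A model with genotype and state as additive terms leaves 1 residual degree of freedom in 4 libraries, and assumes 1 genotype ratio for both states. With edgeR's quasi-likelihood test and Benjamini-Hochberg adjustment, 12 of 603 miRNAs (1.99%) had a genotype effect with an adjusted p below 0.05. Of the 4 arms 0 did. At an unadjusted p below 0.05 there were again 0 of the 4 arms, against 74 of the 603 miRNAs (12.3%). DESeq2 with the same design also called 0 of the 4, against 21 of 668 miRNAs (3.14%). In that edgeR fit miR-298-5p had a log2 ratio of -0.32 (adjusted p = 0.466), miR-296-5p of 0.11 (adjusted p = 0.772), miR-296-3p of -0.10 (adjusted p = 0.781) and miR-298-3p of -0.56 (adjusted p = 0.605).

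**Figure D5:**
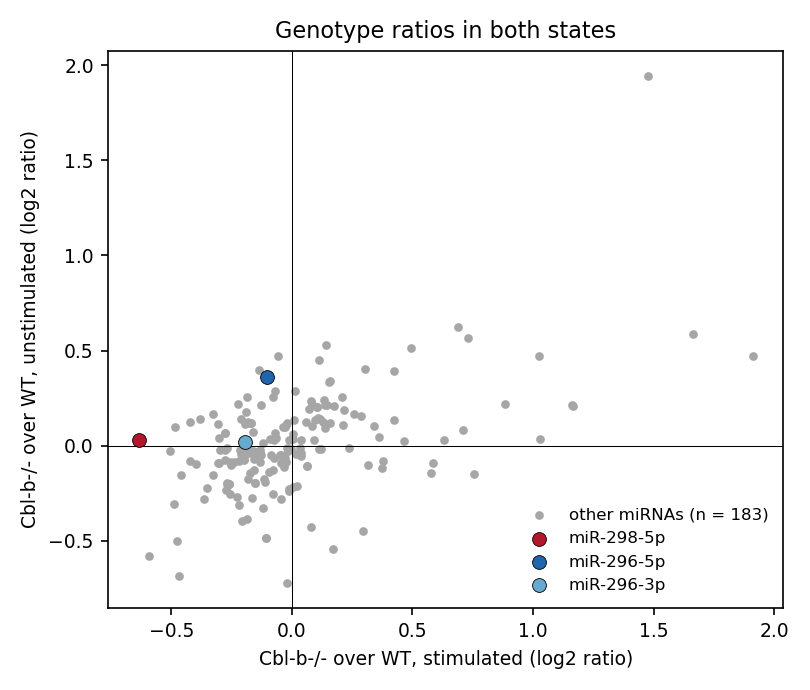
Log2 ratio of Cbl-b-/- over WT CPM in stimulated cells (horizontal) and unstimulated cells (vertical), with 183 other miRNAs over the level minimum in both states in grey. MiR-298-5p stands farthest left, at -0.63, and close to 0 on the vertical axis; the arms of miR-296 are drawn although their unstimulated mean is under the minimum.

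The authors' deposited table for stimulated cells gives miR-298-5p a fold change of 1.52 for WT over Cbl-b-/- with an unadjusted p of 0.003, and lists it as unchanged. In the authors' deposited table for unstimulated cells its fold change is 1.02 with a p of 0.91. All 4 arms are listed as unchanged in both of the authors' deposited tables. Which test gave these p-values is not stated in the labels or headers, and each compares 2 libraries.

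Over the 4 libraries the profile most like that of miR-298-5p, by the distance between centred log2(CPM + 1) values, was that of miR-1983 (distance 0.43). It was followed by miR-6539 (0.49), miR-449c-5p (0.62), miR-212-5p (0.73) and miR-182-3p (0.77), among 334 miRNAs that averaged 10 CPM or more. MiR-1983 stood at 63.2 and 72.7 CPM in stimulated Cbl-b-/- and WT cells and at 1.5 and 1.62 CPM in unstimulated Cbl-b-/- and WT cells. In unstimulated Cbl-b-/- and WT cells miR-6539 stood at 2.85 and 1.36 CPM and miR-182-3p at 0 and 0.324 CPM. MiR-449c-5p stood at 4.78 and 3.69 CPM there, and miR-212-5p at 12.6 and 9.52 CPM. At levels this low, the 1 CPM added before the log bears on the distance. MiR-296-3p came only 28th and miR-296-5p 43rd in likeness to miR-298-5p. The profile of miR-296-5p was closest to miR-17-3p (0.14), an arm from the miR-17~92 cluster, then to miR-301a-3p (0.16) and miR-877-3p (0.18). That of miR-296-3p was closest to miR-3473d (0.18), miR-34a-5p (0.19) and miR-18a-3p (0.35). With a pseudocount of 5 CPM, or a minimum of 50 CPM, 3 of the 5 miRNAs nearest to miR-298-5p stayed in that list, and with a pseudocount of 5 CPM 1 of the 3 nearest to miR-296-3p did.

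Other imprinted loci that hold miRNAs were set beside the Gnas locus, from lists of miRNA names by locus, with a lower minimum of 10 CPM. Of 138 miRNAs listed from these loci, 46 reached it in the Cbl-b-/- stimulation comparison, with a median log2 ratio of -0.56, 3 past 2-fold as higher and 16 as lower. In WT cells 43 reached it, with a median of -0.31, 5 higher and 12 lower. Over all miRNAs of that level the medians were 0.45 in Cbl-b-/- and 0.53 in WT cells, with 36.9% and 39.2% past 2-fold as higher and 16.8% and 14.8% as lower. From Dlk1-Dio3, the large imprinted cluster on chromosome 12, 9 and 3 of 64 members reached the minimum in Cbl-b-/- and WT cells, 0 were higher and 7 and 2 were lower. Its most abundant member, miR-127-3p, had stimulation ratios of -1.65 in Cbl-b-/- and -1.18 in WT cells. MiR-541-5p had -0.95 and -0.31, and miR-411-5p -1.40 and -1.14.

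In the families of miR-297, miR-466, miR-467 and miR-669, many of whose members lie in an intron of imprinted Sfmbt2, 37 and 40 of 71 reached 10 CPM. Of these 3 and 5 were higher and 9 and 10 lower in Cbl-b-/- and WT cells. Their most abundant names, miR-467a-5p and miR-467b-5p, had identical counts and ratios of -0.07 and -0.11 in Cbl-b-/- and WT cells. Near copies share reads in these families. MiR-669a-3p had -1.37 and -1.75. From Mest, miR-335-3p had 54 and 82 reads in stimulated and 15 and 22 reads in unstimulated Cbl-b-/- and WT cells, ratios of 2.13 and 2.14 at a low level. MiR-335-5p had 12 and 13 reads in stimulated and 3 and 8 reads in unstimulated Cbl-b-/- and WT cells. From Igf2, miR-483-3p had between 0 and 3 reads in the 4 libraries. No miR-675 of H19 was among the rows used here. Between the genotypes, 4 of the 64 listed Dlk1-Dio3 members averaged 10 CPM or more in stimulated cells and 8 in unstimulated cells. All of these were past 2-fold and higher in Cbl-b-/-, and 0 of the Gnas arms were. Over all miRNAs of that level 6.16% and 3.58% were past 2-fold and higher in Cbl-b-/-, in stimulated and unstimulated cells. A member could reach the minimum through the Cbl-b-/- library alone, so the minimum itself favoured that direction. MiR-411-5p stood at 7.57 CPM in stimulated WT cells. With no minimum but at least 20 reads, 77 miRNAs from all these loci were compared in stimulated cells, 11 past 2-fold as higher and 2 as lower. In unstimulated cells 82 were compared, 22 past 2-fold as higher and 1 as lower. These counts pool all the loci, and Dlk1-Dio3 alone was not counted in this way. The share over all miRNAs with at least 20 reads was not computed. With no minimum of reads either, 62 of 1057 miRNAs in stimulated cells were past 2-fold as higher and 21 as lower. For unstimulated cells it was 52 of 987 as higher and 6 as lower.

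Marker miRNAs of other cell types were summed to see which moved with the stimulated libraries. Both endothelial and megakaryocyte markers were higher after stimulation in both genotypes. Their sum was 324 and 334 CPM in stimulated Cbl-b-/- and WT cells and 71.6 and 119 CPM in unstimulated Cbl-b-/- and WT cells, mostly miR-126a-5p. Of 4 neuronal and endocrine markers 3 were listed and 2 were higher in both genotypes. Their sum was 369 and 376 CPM in stimulated and 129 and 134 CPM in unstimulated Cbl-b-/- and WT cells, nearly all miR-7a-5p, while miR-375-3p stayed between 0.173 and 0.713 CPM. The 1 listed muscle marker, miR-133a-3p, stayed between 0.0648 and 0.229 CPM. Their part in the levels of miR-296 and miR-298 was not tested. Sums of the myeloid, erythroid, stromal and epithelial lists were lower after stimulation in both genotypes, with exceptions among stromal and epithelial members. Both myeloid and all 4 erythroid markers were lower in both genotypes. The myeloid sum, led by miR-223-3p, was 69.4 and 83.4 CPM in stimulated Cbl-b-/- and WT cells and 413 and 485 CPM in unstimulated Cbl-b-/- and WT cells. The erythroid sum, led by miR-486a-5p, was 511 and 210 CPM in stimulated and 887 and 747 CPM in unstimulated Cbl-b-/- and WT cells. The stromal sum, led by miR-143-3p, was 50.9 and 45.9 CPM in stimulated and 171 and 166 CPM in unstimulated Cbl-b-/- and WT cells. Of its 5 members miR-199a-5p was higher in Cbl-b-/- cells, at 0.951 CPM in stimulated and 0.499 CPM in unstimulated cells, and lower in WT cells, at 0.306 CPM in stimulated and 0.842 CPM in unstimulated cells. The epithelial sum, in which miR-141-3p and miR-203-3p were the most abundant, was 533 and 544 CPM in stimulated and 1041 and 1052 CPM in unstimulated Cbl-b-/- and WT cells. Of its 6 members miR-200c-3p was higher in both genotypes, at 31.7 and 38.5 CPM in stimulated and 18.0 and 20.1 CPM in unstimulated Cbl-b-/- and WT cells, and the other 5 were lower. MiR-205-5p, a defining epithelial marker, had 0 reads in both stimulated libraries and only 0.357 and 0.324 CPM in unstimulated Cbl-b-/- and WT cells. The liver marker miR-122-5p was below 1 CPM in every library. It was the lower in stimulated cells, at 0.346 and 0.0765 CPM against 0.571 and 0.583 CPM in unstimulated Cbl-b-/- and WT cells.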

How the data were processed

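Small RNA libraries were made from total RNA of 4 CD4+ T cell samples using an NEB kit for small RNA (per the labels' protocols); samples were grouped by their source names. The authors deposited 2 tables, 1 per state, each with a raw read count per known mature miRNA and library. They also hold a normalized read count, a score equal to the count divided by 1 constant per library, per the file headers and values. Each deposited table further lists a p-value without adjustment, the fold change of WT over Cbl-b-/- and its log2. From the values, the deposited fold change is 1.03 (unstimulated) and 0.966 (stimulated) times the ratio of the deposited normalized counts, so a further scaling was applied. Per the submitters' processing notes, cutadapt 1.7.1 and GRCm38 p5 were used, in roles they do not state; for the aligner, counter and miRNA annotation the source is not given.

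Raw counts were divided by library sums, also across the tables. Ratio intervals came from exact Clopper-Pearson bounds. Differences between states used 0.5 added to each count and a normal approximation, as did, with nothing added, changes of within-library ratios. edgeR 4.0.16 gave TMM factors and the additive test, DESeq2 1.42.0 size factors, RNAfold 2.7.2 the folding energies; the steps were tested on simulated data. Sequences and positions came from RefSeq (GRCm38) and GENCODE M21 (GRCm38). Alternatives were other scalings, level minimums, fold limits, arms summed, identical rows kept once and other likeness settings. Named were all arms, the 5 or 3 most alike miRNAs, up to 3 per imprinted locus and leading markers; miRNAs beside miR-298-5p in rank, the neighbouring pairs and single markers that went against their list were named after their values were seen. The members and lists were chosen with earlier results of these data known.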

Additional observations from a re-analysis of the deposited data

Results flagged for a closer look

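The genotype ratio (Cbl-b-/- over WT) lay on opposite sides of 0 in stimulated and unstimulated cells for 3 of the 4 arms, with 1 pair of libraries in each state, and the difference was not tested. Opposite sides were common: of 223 miRNAs that averaged 50 CPM or more, 71 (31.8%) had them, and in 32 (14.3%) both counting intervals also excluded 0. Of the 4 arms only miR-298-5p and miR-296-5p reached that level. For miR-298-5p the log2 ratio was -0.63 in stimulated and 0.03 in unstimulated cells, a difference of -0.66, and the unstimulated interval (-0.09 to 0.15) spans 0. For miR-296-5p it was -0.10 and 0.36, a difference of -0.46, and both intervals exclude 0. For miR-296-3p it was -0.19 and 0.02, a difference of -0.21, and the unstimulated interval (-0.34 to 0.38) spans 0. The sign of the unstimulated ratio of miR-298-5p and of miR-296-3p depended on the scaling, since TMM factors gave -0.03 for each.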

How the results depend on the processing

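No paired analysis was possible because the groups compared share fewer than 2 replicate numbers. Each group holds 1 library, and the numbers 1 and 2 in the labels' descriptions mark the genotypes WT and Cbl-b-/-. The additive fit already compares genotypes within each state, and no library could be left out of a ratio. The count of arms past the rule of size for stimulation was 2 in each genotype, and became 1 of the 1 arm eligible with a minimum of 200 CPM and 4 of 4 with none, in Cbl-b-/- and WT cells alike. Over all miRNAs 46.8% and 45.6% passed at 200 CPM and 38.2% and 38.4% with none. For genotype in stimulated cells it was 0 of 3 and became 1 of 3, miR-298-5p, with a fold limit of 1.5, which 11.3% of all miRNAs passed. Over all miRNAs the counts for stimulation were 111 of 223 in Cbl-b-/- and 109 of 220 in WT cells. They came to 182 of 339 and 179 of 332 with a minimum of 10 CPM, 58 of 124 and 57 of 125 with 200 CPM, 402 of 1053 and 407 of 1061 with none, and 48 and 49 with a fold limit of 4. For genotype in stimulated cells 12 of 230 became 23 of 341, 6 of 130 and 83 of 1057 with minimums of 10 CPM, 200 CPM and none, 26 with a fold limit of 1.5 and 1 with 4. In unstimulated cells 3 of 197 became 11 of 307, 0 of 116 and 58 of 987 with these minimums and 9 with a fold limit of 1.5. DESeq2 called 21 of 668 miRNAs in the additive fit, and edgeR 12 of 603. Of the miRNAs nearest to miR-298-5p, 3 of 5 stayed with a pseudocount of 5 CPM and 3 with a minimum of 50 CPM, and of those nearest to miR-296-3p 1 of 3 stayed with that pseudocount. Other imprinted-locus miRNAs past 2-fold numbered 19 of 46, 17 of 43, 4 of 41 and 8 of 49 (stimulation in Cbl-b-/- and WT, genotype in stimulated and unstimulated cells). With no minimum but at least 20 reads they numbered 42 of 84, 33 of 76, 13 of 77 and 23 of 82. Over all miRNAs 53.7%, 53.9%, 6.74% and 3.58% passed with a minimum of 10 CPM, and the share at 20 reads was not computed. Of 80 recomputed log2 ratios of the arms 24 left their counting interval. The comparison of neighbouring hairpins and the place of miR-298-5p among genotype ratios were added after seeing the data. Depth limits miR-298-3p above all.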
